A study of Mus musculus with 2 samples.

Results

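The genes of the Vegf and angiopoietin pathways described here are 5 ligands, Vegfa, Vegfb, Vegfc, Angpt1 and Angpt2, and 5 endothelial receptors, Kdr, Flt1, Flt4, Tek and Tie1. They were chosen by name, with earlier results of these data known, and make up 10 of the 21779 protein-coding genes used. Sap130 belongs to the Sin3 corepressor, which removes acetyl groups from histones. It was mapped in hearts of C57BL/6 mouse embryos at E12.5 by 1 ChIP library, made with 2 µg of a rabbit antibody. Peaks were called by the authors against 1 input library, of the same stage, tissue and strain and made without antibody. A gene was counted when a peak summit lay inside it or within 10000 bp of it. Of the 14881 summits on nuclear chromosomes, 13 met that rule at these genes.

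Vegf ligands and angiopoietins are secreted proteins that act on receptor tyrosine kinases of endothelial cells. Vegfa drives the growth of vessels through Kdr, while Flt1 binds Vegfa and Vegfb and can act as a trap for them, and Flt4 receives Vegfc, chiefly in lymphatic vessels. Angpt1 activates Tek, Angpt2 can oppose it, and Tie1 is a partner of Tek with no well-defined ligand of its own. In the embryonic heart these signals pass between muscle, endocardium and forming vessels.

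Sequences before the start of 6 of these genes are shown, to let the base composition before starts with and without a summit be compared. They are the 250 bases before the annotated start, from RefSeq on build GRCm38.p6, written 5′ to 3′ along the gene, with each CG dinucleotide in capitals. The first 3 genes had a summit within 1000 bp of the start, and the last 3 had none.
Vegfb (chr19:6987652-6987901, - strand): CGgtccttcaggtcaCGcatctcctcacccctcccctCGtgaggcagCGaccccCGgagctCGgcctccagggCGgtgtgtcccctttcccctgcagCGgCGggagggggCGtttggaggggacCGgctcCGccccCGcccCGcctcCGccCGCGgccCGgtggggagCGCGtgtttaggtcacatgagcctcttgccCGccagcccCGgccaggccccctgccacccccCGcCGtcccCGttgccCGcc
Vegfc (chr8:54077282-54077531, + strand): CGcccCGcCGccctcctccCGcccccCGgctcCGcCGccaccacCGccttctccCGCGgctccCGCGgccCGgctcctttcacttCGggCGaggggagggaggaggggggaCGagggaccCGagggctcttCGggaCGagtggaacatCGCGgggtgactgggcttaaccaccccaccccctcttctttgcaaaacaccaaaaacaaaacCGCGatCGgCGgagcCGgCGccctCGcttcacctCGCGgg
Kdr (chr5:75978456-75978705, - strand): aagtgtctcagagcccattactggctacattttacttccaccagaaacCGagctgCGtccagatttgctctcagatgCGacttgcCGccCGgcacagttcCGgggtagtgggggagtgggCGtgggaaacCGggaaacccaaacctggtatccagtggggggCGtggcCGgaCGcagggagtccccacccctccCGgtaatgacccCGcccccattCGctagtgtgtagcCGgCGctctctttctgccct
Flt4 (chr11:49609429-49609678, + strand): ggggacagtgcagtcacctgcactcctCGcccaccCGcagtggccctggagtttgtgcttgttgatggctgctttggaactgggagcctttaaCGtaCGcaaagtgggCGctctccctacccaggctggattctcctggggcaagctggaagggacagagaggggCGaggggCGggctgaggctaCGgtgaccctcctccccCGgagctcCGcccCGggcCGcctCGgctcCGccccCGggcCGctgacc
Tek (chr4:94739039-94739288, + strand): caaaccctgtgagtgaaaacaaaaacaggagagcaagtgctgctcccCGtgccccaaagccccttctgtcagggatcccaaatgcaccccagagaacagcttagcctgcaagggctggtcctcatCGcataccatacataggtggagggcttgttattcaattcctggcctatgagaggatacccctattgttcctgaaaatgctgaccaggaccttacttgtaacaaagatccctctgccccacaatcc
Tie1 (chr4:118489850-118490099, - strand): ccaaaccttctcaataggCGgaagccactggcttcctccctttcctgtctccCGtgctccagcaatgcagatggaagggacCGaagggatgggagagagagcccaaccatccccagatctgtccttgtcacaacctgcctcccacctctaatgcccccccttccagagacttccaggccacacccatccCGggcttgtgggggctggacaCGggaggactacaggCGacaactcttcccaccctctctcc

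Sap130 summits were found at 6 of the 10 genes, close to the share over all protein-coding genes, which was 60.1%. Vegfa, Vegfb, Vegfc, Angpt1, Kdr and Flt1 had a summit, each of them with 1 inside the gene. Angpt2, Flt4, Tek and Tie1 had none in reach. By role, 4 of 5 ligands had a summit and 2 of 5 receptors had one, and by pathway 5 of 6 Vegf genes had one, as did 1 of 4 angiopoietin and Tie genes. With a single library and so few genes, the difference between ligands and receptors was not tested, and the exact 95% intervals of both shares were wide, 28.4% to 99.5% for ligands and 5.27% to 85.3% for receptors. These intervals, like the others given below, cover counting error only. They treat genes as independent draws, although these were chosen by name, and serve as description and not as a test.

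**Figure D1:**
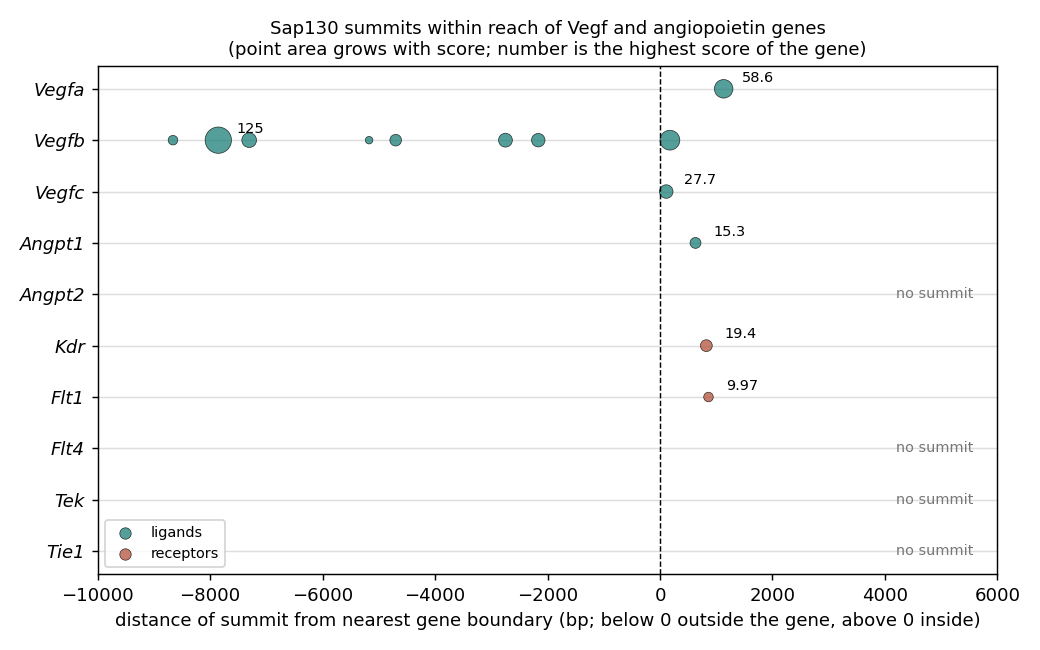
Position of each Sap130 summit relative to the nearest boundary of the gene, in bp, below 0 outside the gene and above 0 inside it, for ligands (upper rows) and receptors (lower rows). Point area grows with the score, and the number beside a gene is its highest score; 5 genes have 1 summit each, Vegfb has 8 and 4 genes have none.

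Each summit carries a score that the authors deposited, a −log10 transform of either a p-value or a q-value, and which of these it is was not settled. It ranks summits within this list and gives no fold over input. Over all 14881 summits its median was 33.3, and the upper quartile began at 65.2. For the 13080 protein-coding genes with a summit in reach, the strongest score had a median of 54.7 with quartiles of 27.4 and 85.6.

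Among the Vegf ligands, Vegfa (chromosome 17, 46016993 to 46032377) had 1 summit of score 58.6, at 46031245. It lay 1132 bp downstream of the annotated start, inside the gene. Of all genes with a summit, 53.6% had a lower strongest score, which places Vegfa in the middle of the targets. The next summit, at Mrps18a, which encodes a mitochondrial ribosomal protein, was 78741 bp from the gene.

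Vegfb, which encodes a ligand of Flt1, had a summit of score 67.6 at 6987475, 176 bp downstream of its start (chromosome 19, 6982472 to 6987651). That score was above those of 76.6% of all summits, and the score of Vegfa was above those of 70.6% of them. The same summit lay 436 bp outside the far end of Dnajc4, the neighbouring gene, and 5043 bp downstream of the start of Dnajc4. A further 7 summits lay outside Vegfb within 10000 bp, so that Vegfb had 8 in reach. As many or more were in reach of 0.0964% of protein-coding genes. All 7 were within 1000 bp of a boundary of another gene. The strongest, of score 125, lay 388 bp inside Plcb3, of a phospholipase C, and 430 bp outside Ppp1r14b. A second, of score 33.9, was 119 bp inside Ppp1r14b, which encodes an inhibitor of a phosphatase. Summits of score 29.2 and 27.4 fell inside Fkbp2, of a prolyl isomerase, and the overlapping LOC114841036. Those of score 18.4 and 3.26 flanked the start of Dnajc4, of a chaperone family, 167 bp downstream and 242 bp upstream of it. The last, of score 10.04, was 180 bp downstream of the start of Trpt1 and 274 bp upstream of that of Nudt22. With a reach of 1000 bp the strongest score of Vegfb was 67.6 in place of 125. The farthest summit counted lay 8660 bp outside Vegfb and the nearest not counted, of score 25.1, lay 12849 bp outside it.

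Vegfc, the lymphatic growth factor, had 1 summit of score 27.7 at 54077643, 111 bp downstream of its start (chromosome 8, 54077532 to 54186454). A lower strongest score was found at 25.2% of genes with a summit. The summit also lay inside Gm33153, a gene that overlaps this end of Vegfc, 1573 bp from the boundary of Gm33153. No other summit was found within 100 kb of Vegfc, the next being 343275 bp away.

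The angiopoietins differed in this list. Angpt1, the activator of Tek, had 1 summit of score 15.3 at 42676346, 631 bp inside the right-hand boundary of the gene as the chromosome is numbered (chromosome 15, 42424667 to 42676977). A lower strongest score was found at 12.45% of genes with a summit. Angpt2 (chromosome 8, 18690263 to 18741562) had none within 50000 bp. Its nearest summit, of score 169, was at a boundary of Mcph1, of microcephalin, 94973 bp from Angpt2.

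The receptors with a summit had low scores. Kdr, the main signalling receptor of Vegfa, had 1 summit of score 19.4 at 75978248 (chromosome 5, 75932827 to 75979072), 207 bp downstream of the annotated start. Flt1 had 1 of score 9.97 at 147725576 (chromosome 5, 147561604 to 147726438), 435 bp downstream of its start. Lower strongest scores were found at 16.8% of genes with a summit for Kdr and at 6.61% for Flt1. Both receptor scores were below those of Vegfa, Vegfb and Vegfc, and Kdr, but not Flt1, was above Angpt1. With 1 library, the error of a score is unknown, so neighbours in this order cannot be separated.

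**Figure D2:**
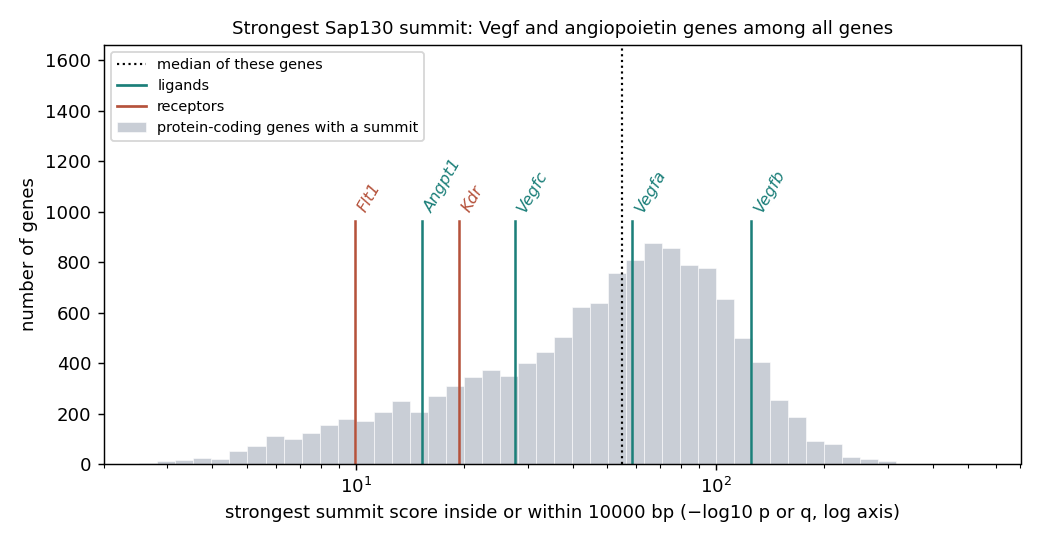
Strongest summit score inside or within 10000 bp, on a log axis, for all 13080 protein-coding genes with a summit (bars, number of genes). Coloured lines mark the 6 Vegf and angiopoietin genes with a summit, 4 of which lie left of the dotted median of 54.7; the line of Vegfb, at 125, is a summit at neighbouring genes.

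Flt4, Tek and Tie1 had no summit in reach, though Tie1 had 3 within 50000 bp and Flt4 had 2 within 100 kb. The nearest to Flt4, the Vegfc receptor (chromosome 11, 49609679 to 49652739), was at Cnot6, of an mRNA deadenylase, 59768 bp away, with a score of 91.9. The nearest to Tek (chromosome 4, 94739086 to 94874976) was at Mysm1, of a histone H2A deubiquitinase, 103947 bp away, with a score of 48.3. The nearest to Tie1 (chromosome 4, 118471191 to 118489849) was at Cdc20, of an activator of the anaphase-promoting complex, 34027 bp away, with a score of 119. Angpt2, Flt4 and Tek thus had no summit within 50000 bp, as was the case for 28.6% of protein-coding genes. Tek had none within 100 kb either, like 22.2% of these genes. In whole-heart chromatin, binding in few cells and weak binding in many cannot be told apart, and a gene without a summit may still be bound below the threshold of the peak calling.

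The summits inside these genes were set against the annotated starts. A summit was within 1000 bp of the start of Vegfb, Vegfc, Kdr and Flt1, and within 1000 bp of a boundary of Angpt1, whose strand was not given in the table used. These are 5 of the 10 genes, against 51.4% of all protein-coding genes counted in the same way. The Vegfa summit was just outside this window. At the 5 genes with an annotated start, the summits inside the gene were 111, 176, 207, 435 and 1132 bp downstream of it. Of all summits within 1000 bp of an annotated start, 81.6% were downstream of it, with a median position of 179 bp downstream and quartiles of 96 and 248 bp. Vegfb and Kdr lay between these quartiles and Vegfc too, while Flt1 and Vegfa were beyond the upper one.

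The promoters of these genes differed in their content of CG dinucleotides. In windows of 300 bases, from 250 before to 50 after the start, Vegfc held 35 CG dinucleotides, Vegfb 31, Flt1 29, Flt4 26 and Kdr 19. The 2 annotated starts of Vegfa had 16 and 10, Tie1 had 7 and Tek had 3. Over all 21263 windows of protein-coding genes the median was 13. A window was called CpG-rich when its GC content was at least 50% and the number of CG dinucleotides at least 0.6 of that expected from its C and G content. Vegfb, Vegfc, Kdr, Flt1 and Flt4 were CpG-rich by this measure, with ratios of 0.76, 0.96, 0.69, 0.78 and 0.70. Vegfa was below it with 0.56 at the outer start, on the gene boundary, and 0.41 at the inner one, as were Tie1 with 0.29 and Tek with 0.15. Angpt1 and Angpt2 were not matched.

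A summit within 1000 bp was found at 4 of the 5 CpG-rich windows of these genes and at 0 of the 4 CpG-poor ones. Of the latter, 2 belong to Vegfa, whose summit lay 1132 bp from the outer start, just beyond that distance. Over all promoter windows the share with a summit was 50.4%, made up of 89.2% of 9600 CpG-rich ones and 18.5% of 11663 CpG-poor ones. The pattern at these genes thus resembled that over the genome, and the part of CG content in it was not tested. Flt4, whose sequence above carries 16 capital pairs in 250 bases, was CpG-rich and had no summit, and Kdr, with the same 16 pairs, had one. These counts depend on the threshold: at a ratio of 0.75, 3 of 3 CpG-rich and 1 of 6 CpG-poor windows had a summit, with Kdr and Flt4 both CpG-poor. Tek and Tie1, with 2 and 6 pairs in their printed sequences, were CpG-poor and had none. Scores at CpG-rich starts with a summit had a median of 55.2 and quartiles of 29.5 and 83.9. Against these, Vegfb with 67.6 was above the median, whereas Vegfc with 27.7, Kdr with 19.4 and Flt1 with 9.97 were below the lower quartile. Of the CpG-rich starts with a summit, 23.3% scored lower than Vegfc, 14.4% lower than Kdr and 4.87% lower than Flt1.

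**Figure D3:**
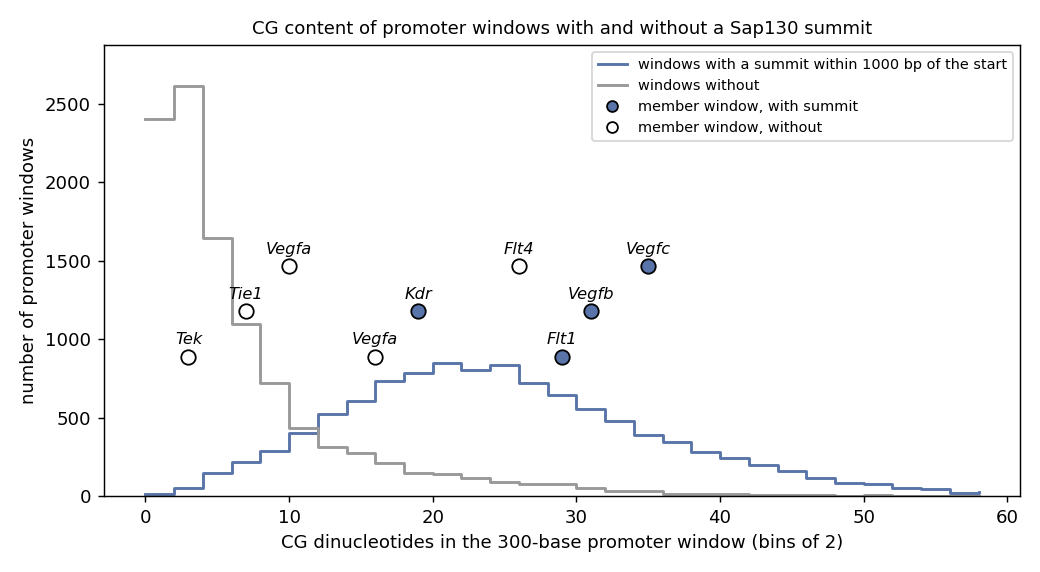
Number of promoter windows of 300 bases by their count of CG dinucleotides, in bins of 2, with (blue) and without (grey) a summit within 1000 bp of the start; the last bin holds all higher counts. Circles mark the windows of the genes described, at arbitrary heights, filled where a summit was found: Kdr, Flt1, Vegfb and Vegfc with 19 to 35 pairs are filled, and Tek, Tie1, both windows of Vegfa and Flt4 are open.

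Short motifs were searched in the same windows on both strands. The GC box GGGCGG was present in 7 of the 9 windows, those of Vegfa, Vegfb, Vegfc, Kdr, Flt1 and Flt4, and in 46.2% of all windows. It was in neither Tek nor Tie1. The hypoxia response core ACGTG, which is also part of the E-box CACGTG, was in the inner window of Vegfa alone, against 20.9% of all windows. The GATA motif AGATAA was in the outer window of Vegfa and in Tek, against 9.65%. None of the 9 windows held CACGTG (7.84% of all windows), the ETS motif CCGGAAG (11.6%), the forkhead motif TGTTTAC (3.01%), the NRF1 motif GCGCATG (4.80%) or the E2F motifs TTCCCGC (5.95%) and TTGGCGC (3.09%). A match of this kind describes the letters and shows no binding.

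Other genes of the pathway had summits in 42 of 53 cases (79.2%, exact interval 65.9 to 89.2), against 60.1% of all genes, with a median strongest score of 59.8. Their promoter windows were mostly CpG-rich, with a summit at 29 of 30 CpG-rich and 6 of 15 CpG-poor ones. The part of CG content in the share of this list was not tested. All 8 genes of oxygen sensing, which controls Vegfa transcription, had a summit at the start. Among them were Hif1a and Arnt, the subunits of the hypoxia-inducible factor, with scores of 66.8 and 65.2, Vhl, of the ubiquitin ligase that degrades it, with 42.9, and the prolyl hydroxylase gene Egln1 with 63.4. Epas1, of an alpha subunit enriched in endothelium, had 14.7. These scores are of the strongest summit in reach, at the start or not. Of the 29 genes of intracellular signalling, 27 had a summit. The highest scores were 154 at Plcg1, the phospholipase recruited by Kdr, 152 at Pxn, the focal adhesion protein paxillin, 127 at Grb2, an adaptor of receptor tyrosine kinases, and 116 at Mapkapk2. The summits of Pxn and Grb2 were in reach but not within 1000 bp of the annotated start.

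Genes acting at or outside the cell surface formed 3 small groups, whose exact intervals all include the share of all genes. Of the 3 remaining ligands, Pgf, Vegfd and Angpt4, 0 had a summit. Of 7 coreceptors and partners, 4 had one. These were Nrp1 and Nrp2, the neuropilins, with 48.2 and 26.9, and the integrin genes Itgb1 and Itgav with 70.9 and 38.3. Ptprb, a phosphatase that restrains Tek, Cdh5, VE-cadherin, and Itgb3 had none. Of 6 genes that process the ligands, 3 had one, namely Furin, a protease that cleaves the Vegfc precursor, with 46.9, Adamts3, which completes that cleavage, with 29.7, and Svep1 with 7.58. Ccbe1, the cofactor of Adamts3, and the protease genes Plau and Plg had none.

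The receptors were set beside other receptor tyrosine kinases, and the ligands beside other ligands of that class. The 5 receptors had summits in 2 cases, with a median score of 14.7, while 46 of the other 53 receptor tyrosine kinases had one (86.8%, exact interval 74.7 to 94.5), with a median of 30.4. The highest were Lmtk3 with 133, Lmtk2 with 114 and the neuregulin receptor genes Erbb2 and Erbb3 with 112 and 102. Csf1r, Epha10 and Epha8 had none. The 5 ligands had summits in 4 cases, with a median score of 43.1, while 35 of 64 other ligands had one (54.7%, 41.7 to 67.2), with a median of 37.4. The highest among these were Fgf22 with 153, Efna2 with 141 and Flt3l with 124. The Fgf22 and Flt3l summits were not within 1000 bp of their starts. Angpt4 and Areg were among those without. In the larger lists the share was thus higher for receptors and among the 10 genes for ligands, whereas the median score was higher for ligands in both. These medians take the strongest summit in reach, at the start or not. Among genes of the larger lists with a summit at the start, 37 receptors and 25 ligands, the median was higher for receptors. Counted with the members, CpG-rich windows had a summit in 28 of 34 cases for receptors and 23 of 32 for ligands. CpG-poor ones had one in 13 of 25 and 6 of 37 cases. None of these differences was tested.

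Endothelial genes other than the receptors were counted in a pair of lists, and the difference between the lists was not tested. Of 23 further endothelial markers, 12 had a summit (52.2%, exact interval 30.6 to 73.2), with a median score of 16.0, and 5 had one at or above the median score of the summit list. Aplnr, Cd34 and Cdh5 had none. Nfatc1, a factor of endocardium and valves, had 52.7, and Nr2f2, a factor of venous identity, 55.0. Plvap and Lyve1 had 69.3 and 63.2. Of these 4, Nfatc1 alone had a summit within 1000 bp of its start. Of 24 endothelial transcription factor genes, 23 had a summit (95.8%, 78.9 to 99.9), with a median score of 25.8. The list thus had a higher share than all genes for any summit, a difference that was not tested. Its promoter windows had a summit in 14 of 16 CpG-rich and 2 of 8 CpG-poor cases. At or above the median score of the summit list, 7 of the 24 genes had one, against 41.9% of all genes. No interval was taken for that count, and 24 genes are too few to place it below the share of all genes. Klf4, a flow-responsive factor, had 71.9, Rbpj, the nuclear effector of Notch, 53.5, and Ets2 42.2. Erg had none. The lists share Nr2f2 and Prox1 with each other, and Nos3 and Cdh5 stand in both the marker and the pathway lists, as Foxo1 does in the factor and pathway lists.

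**Figure D4:**
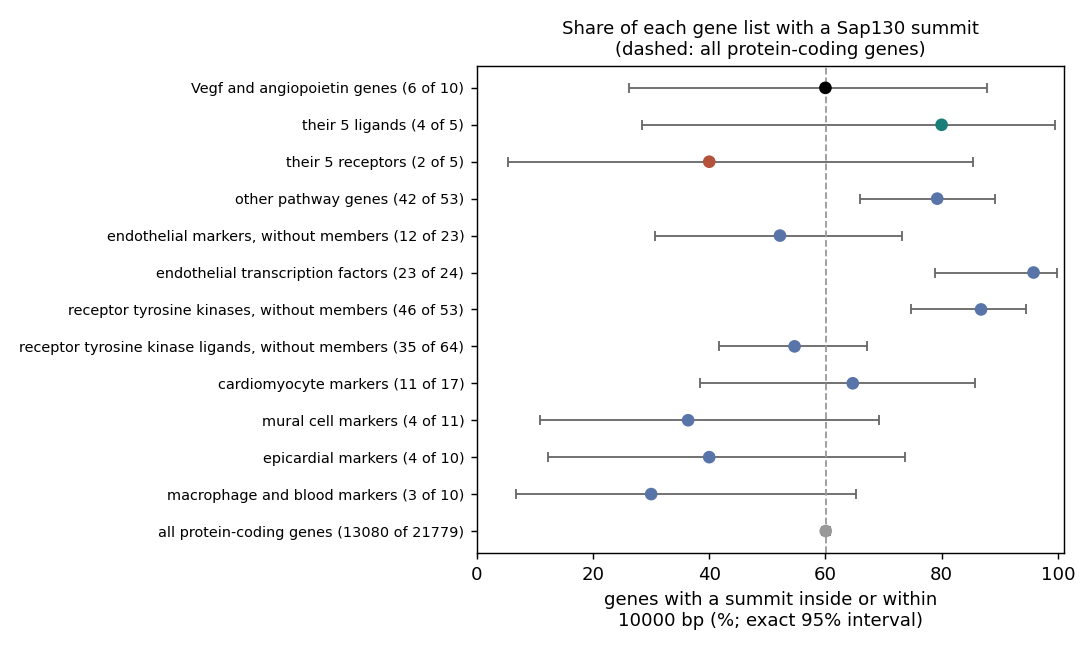
Percentage of genes with a Sap130 summit inside or within 10000 bp for the Vegf and angiopoietin genes, their ligands and receptors, and other gene lists, with exact 95% intervals that cover counting error only. The dashed line is the share of all protein-coding genes, 60.1%; the 10 genes lie on it, and the intervals of their ligands and receptors both include it.

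Markers of the other cell types of the heart gave the setting. Summits were found at 11 of 17 cardiomyocyte genes, with Myl4, Ryr2 and Nppb at 57.2, 52.6 and 52.6, Nkx2-5 at 28.6, and none at Actc1, Myh6 and Myh7. They were found at 4 of 11 mural cell genes, the highest being 58.8 at Cnn1, with none at Abcc9, Acta2 and Cspg4. The Cnn1 summit was in reach but not within 1000 bp of the start. Summits were found at 4 of 10 epicardial genes, the highest being 33.8 at Scx. Of 10 macrophage and blood genes 3 had one in reach, 0 of them within 1000 bp of the start, where 51.4% of all genes had one. Of all genes, 60.1% had a summit in reach. The exact intervals of these lists all include that share. They were 38.3% to 85.8%, 10.9% to 69.2%, 12.2% to 73.8% and 6.67% to 65.2%, in the order given. These lists describe where summits lay and not which cells were present.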

How the data were processed

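Per the labels' protocols, Sap130 was immunoprecipitated with a Diagenode kit and libraries were made with an NEBNext kit. The submitters' processing notes name Bowtie 1.1.2, MACS2 2.1.0.20140616 and build GRCm38 (mm10). How they were run is not given in the sources used here. In the deposited list the authors gave 14886 summits of 1 base with a score, a −log10 transform of either a p-value or a q-value. Of these, 5 mitochondrial summits were left out. Depth is unknown, and with 1 library each there is no replicate error and no test.

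Genes and promoter windows came from RefSeq tables of GRCm38.p6. Genes on no named chromosome, or with a start below 3 Mb (except on Y), taken as patches and scaffolds, were left out. Starts and strand were known for 17492 of 21779 genes and 8 of the 10 described. For the others a summit within 1000 bp of either boundary counted as at the start. All 10 symbols and all those of 9 further lists matched.

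The genes, lists and rules were chosen with earlier results of these data known, and the CpG-rich threshold after the data were seen. Named genes were the 10, and from each list up to 4 with the highest score and 3 without a summit. Further pathway genes were named by role after their values were seen. With 1 library, no genes of similar pattern could be sought. The assignment of summits to genes was tested on simulated summits at genes far from any neighbour. Crowded loci such as that of Vegfb were not simulated. Python 3.11.15, numpy 2.4.6, pandas 2.3.3, scipy 1.17.1 and matplotlib 3.10.9 were used.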

Additional observations from a re-analysis of the deposited data

How the results depend on the processing

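The count of 6 genes with a summit stayed at 6 for a reach of 0, 1000, 5000 and 20000 bp and was 7 at 50000 bp, where Tie1 entered, while the share of all genes was 50.9%, 55.0%, 57.4%, 64.0% and 71.4%. It was 5 without summits at a boundary of another gene, which removed Vegfb, whose own start summit lies near the far end of Dnajc4. Filters on score lowered the counts by construction, and also that over all genes, to 41.9% at or above the median score and 24.3% in the upper quartile. At or above the median 2 genes remained, 2 ligands and 0 receptors, and in the upper quartile 1, with 1 ligand and 0 receptors. At the start, 1 of the 5 genes remained under either filter. With windows of 500 and 2500 bp around the start, 4 and 6 genes had a summit there, and Vegfa entered at 2500 bp. The share of all genes was not taken for these windows or for the start under the score filters. Nor was it taken without summits at a boundary of another gene. These counts therefore have no share to be set against. Of the strongest scores of single genes, 1 of 23 alternative values moved, that of Vegfb to 67.6 with a reach of 1000 bp. The other 5 genes had 1 summit each, inside the gene, and no further one within 50000 bp. Merging and the alternative reaches therefore could not change their scores. Vegfb had no score left without summits at a boundary of another gene, and that setting is not among the 23.

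The other lists were counted whole, with the members that belong to them. At or above the median score, where 41.9% of all genes had a summit, 35 of 53 other pathway genes remained. So did 5 of 27 endothelial markers and 7 of 24 endothelial transcription factors. The counts were 21 of 58 for receptor tyrosine kinases and 21 of 69 for their ligands. Among other markers, 3 of 17 cardiomyocyte, 1 of 11 mural, 1 of 10 epicardial and 2 of 10 macrophage and blood genes remained. The upper quartile, reached by 24.3% of all genes, gave 18 other pathway genes, 1 endothelial marker and 1 endothelial transcription factor. It also gave 9 receptor tyrosine kinases, 9 ligands, 2 macrophage and blood genes, and 0 cardiomyocyte, mural and epicardial genes. A reach of 50000 bp, where 71.4% of all genes had a summit, gave 17 of 17 cardiomyocyte, 8 of 11 mural, 7 of 10 epicardial and 7 of 10 macrophage and blood genes. The last list had 0 with a reach of 0 or 1000 bp and without summits at other genes, and 5 with 20000 bp. With a CpG ratio of at least 0.5 or 0.75, chosen after seeing the data, a summit was at 86.4% or 92.9% of CpG-rich starts and 13.3% or 30.1% of CpG-poor ones. Among the windows of the genes described, these were 4 of 6 or 3 of 3 CpG-rich ones and 0 of 3 or 1 of 6 CpG-poor ones. At 0.75, Kdr and Flt4 were both CpG-poor. No paired analysis was possible because there is 1 ChIP and 1 input library. Depth is unknown, so the lowest detectable enrichment is too.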
